A study of Mus musculus with 24 samples.

Results

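Guts labelled null for both Ret and Sema3d were compared with wildtype guts, as whole organs of mouse embryos at embryonic day 12.5. The comparison took 12 of the study's 24 guts, 6 labelled Ret-Sema3d double null and 6 labelled wildtype, with 3 females and 3 males of each. The strains were C57BL/6, 129/Sv and C3H, mixed, in all guts, and the labels name no allele beyond the word null. The other 12 guts were Ret null or Sema3d null. Poly-A RNA was sequenced, and the genes described are the 22971 of 24664 in the authors' deposited table for double null guts whose model converged with bounded coefficients. Of the remaining 1693 genes, 1664 had an unbounded coefficient.

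The enteric nervous system is the network of neurons and glia in the gut wall. It is built by neural crest cells that enter the foregut, migrate along the gut, divide and differentiate. Ret, the receptor tyrosine kinase that responds to GDNF-family ligands with Gfra co-receptors, is required for the survival, proliferation and migration of these cells, and loss of Ret leaves the bowel without enteric ganglia in mice. Sema3d is a secreted class 3 semaphorin, a family of guidance cues that act through plexin and neuropilin receptors on axons, crest cells and blood vessels.

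The values are the authors' model fits and no value per gut is in these tables, so the depth of each library and the spread of single guts are unknown from them. For each gene the tables give a log2 change between genotypes adjusted for sex, here followed by ± and an error derived from the deposited likelihoods, and an adjusted p. The error, its intervals and any adjusted p whose deposited p is 0 were computed here from the authors' deposited deviances. On simulated data the error was too small for the largest decreases. A gene was called at the deposited adjusted p below 0.05. The fitted level is in normalised counts per gut, averaged over the sexes, and does not correct for gene length. The full-model deviance measures how far the guts scattered about the additive fit of sex and genotype. It therefore also holds any difference between the sexes in the genotype change. Values above 16.9, the 95% limit of a chi-square distribution with 9 degrees of freedom, are pointed out. The deviances lay below that distribution, with a median of 5.44 and 0.596% above the limit among genes with a level of at least 50, so the limit only marks genes of wide scatter. In bulk RNA from a whole gut, fewer cells of a type and less RNA per cell cannot be told apart.

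Ret lies on chromosome 6 of GRCm38 (118151745 to 118197718, minus strand; ENSMUSG00000030110.13). In the authors' deposited table its fitted level was 1497 in wildtype and 1.14 in double null guts, a log2 change of -10.36 ± 0.29 (adjusted p 3.66e-279, computed from the deposited deviances). That is 0.0759% of wildtype. Sema3d lies on chromosome 5 (12383385 to 12588948, plus strand; ENSMUSG00000040254.11). Its level in the authors' deposited table was 801 in wildtype and 390 in double null guts, a log2 change of -1.04 ± 0.07 (adjusted p 3.29e-51). Sema3d RNA thus remained at 48.6% of wildtype (95% interval 44.4 to 53.3), and a gene total cannot show which exons those reads came from. The words double null are therefore used as the label of these guts.

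Among these genes 505 (2.2%) were called in the authors' deposited table, 449 lower (1.95%) and 56 higher (0.244%). An unadjusted p under 0.05 was listed for 1553 genes. At an adjusted p below 0.01 the number called higher was 20, and with the Bonferroni adjustment it was 3. The decreases were large and the increases small. Among genes called lower the median log2 change in the authors' deposited table was -1.16, or 44.8% of wildtype, and the quartiles were -2.45 and -0.54. Among genes called higher the median in the authors' deposited table was 0.29, or 122% of wildtype, with a range of 0.17 to 4.59. The plot of change against wildtype level shows decreases over a wide range of levels, which were small for abundant genes such as Tuba1a and Map1b.

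**Figure D1:**
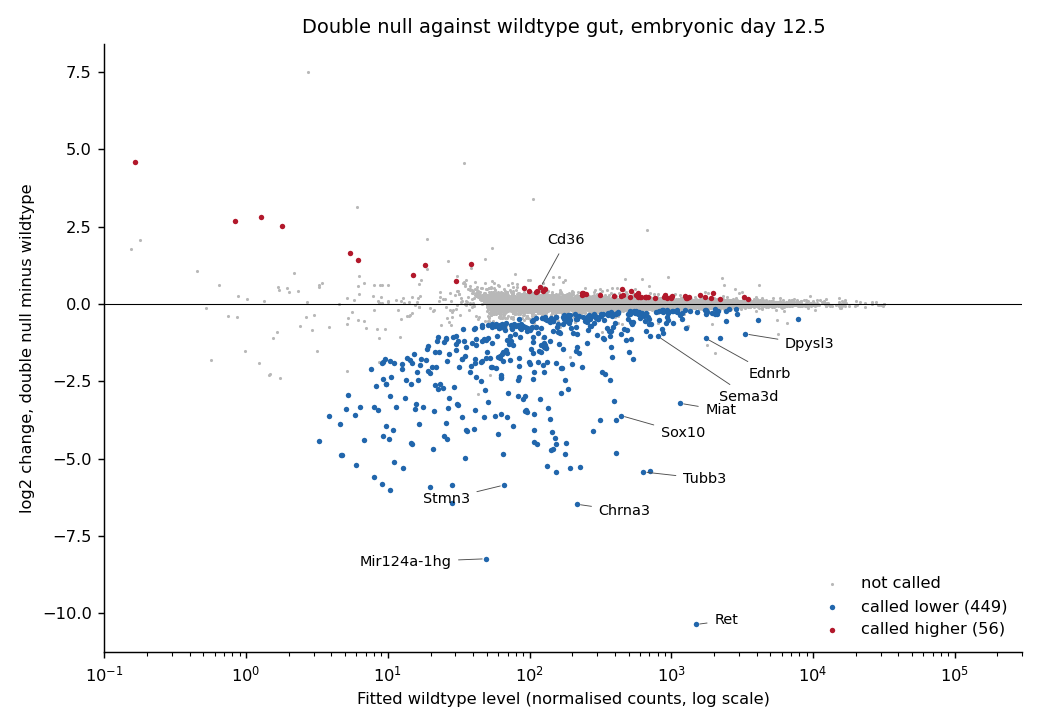
Log2 change between double null and wildtype guts (vertical axis) against the fitted wildtype level in normalised counts (horizontal log axis), 1 point per gene that had a level of at least 50 in either genotype, was called, or stood in a gene list. The 449 genes called lower (blue) reach to -10.36 at Ret, whereas all 56 genes called higher (red) lie at or below 4.59 and those above 50 counts in wildtype lie close to the line at 0.

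Of the 449 genes called lower in the authors' deposited table, 39 retained under 5% of their wildtype level and 40 retained between 5 and 10%. A further 62 retained between 10 and 25%, 107 between 25 and 50%, 127 between 50 and 75%, and 74 between 75 and 100%. The lowest class held neuronal transcription factors, receptors and cytoskeletal proteins. The upper classes held genes such as Map1b, Tuba1a, Hand2 and Cdh2, whose levels stayed above 65% of wildtype.

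The genes were grouped in 42 lists by function or cell type, holding 787 genes of which 756 were measured. The lists were chosen with earlier results of these data known, so their shares of called genes are descriptions and not tests. Neural genes filled 14 lists, of crest transcription factors, neuronal cytoskeleton, RNA-binding proteins, synaptic vesicles, secretory granules, transmitters (3 lists), ion channels, receptors, adhesion, axon guidance, neurotrophins and glia. Over these, 126 of 326 measured genes were called lower in the authors' deposited table (38.7%, against 1.95% of all genes) and 0 were called higher. The median log2 change of all genes in the authors' deposited table was 0.01.

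**Figure D2:**
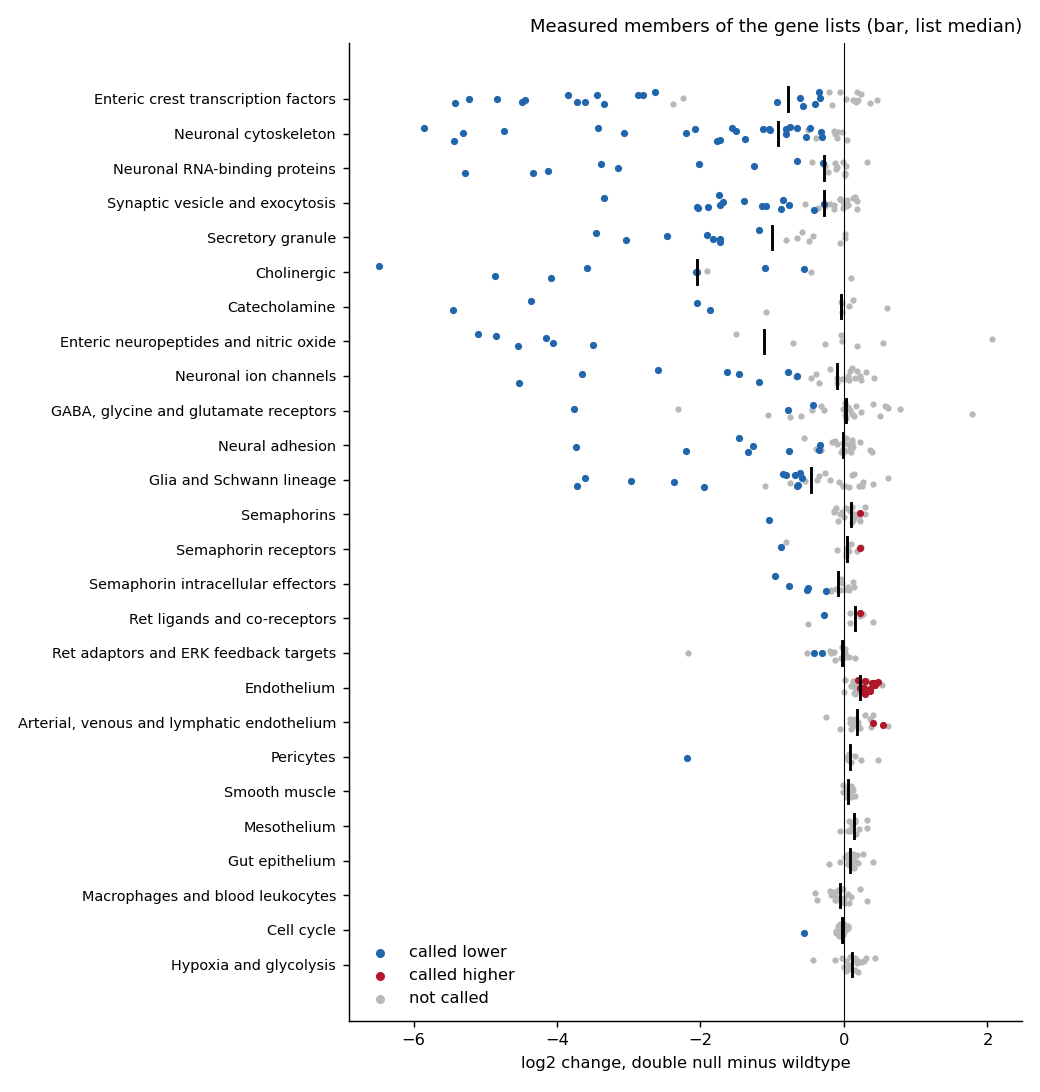
Log2 change between double null and wildtype guts (horizontal axis) of each measured member of 26 gene lists, with called genes in blue or red, other genes in grey, and a black bar at each list's median. Cholinergic genes have the lowest list median of those shown, -2.05, the endothelial list lies to the right of 0 with a median of 0.23, and smooth muscle genes gather close to 0 with a median of 0.06.

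Neuronal genes held the largest decreases. Chrna3 and Chrnb4, the alpha and beta subunits of the nicotinic acetylcholine receptor of autonomic ganglia, fell to 1.12% and 3.43% of wildtype in the authors' deposited table. The level of Chrna3 in the authors' deposited table was 216 in wildtype and 2.43 in double null guts, a log2 change of -6.48 ± 0.22 (adjusted p 8.03e-188). For Tubb3, the neuron-specific beta tubulin, the level was 635 in wildtype and 14.7 in double null guts of the authors' deposited table, a log2 change of -5.43 ± 0.12. Both genes thus had nearly no RNA left.

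The list of cholinergic genes had 8 of 11 measured members called lower in the authors' deposited table, with a median log2 change of -2.05. Slc18a3, which loads acetylcholine into vesicles, changed by -4.09 ± 0.38 and Chat, which makes acetylcholine, by -3.59 ± 0.89 from a wildtype level of only 5.84 in the authors' deposited table. Slc5a7, the choline transporter, had -0.46 and was not called.

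Among catecholamine genes 4 of 11 were called lower in the authors' deposited table. Dbh, which makes noradrenaline and is expressed transiently by enteric precursors, changed by -5.44 ± 0.31 from a level of 153, and the vesicular transporter Slc18a2 by -1.86 ± 0.17. Th, the first enzyme of the pathway, fell by 2.05 on the log2 scale in the authors' deposited table. Ddc, the decarboxylase of the same pathway, also serves other cells and had a log2 change of -0.03 ± 0.09 at a level of 222 in the authors' deposited table.

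Enteric neurons are classed by their transmitters. Nos1, the enzyme that makes the relaxing transmitter nitric oxide, had a level of 143 in wildtype and 8.05 in double null guts, per the authors' deposited table, a log2 change of -4.15 ± 0.26. The peptide genes Cck (-4.85 ± 0.49), Gal (-4.05 ± 0.39) and Cartpt (-3.50 ± 0.22) were called lower in the authors' deposited table too. Vip and Adcyap1, already low in wildtype at 11.1 and 14.9, changed by -5.10 ± 0.78 and -4.54 ± 0.66 in the authors' deposited table. Penk, the enkephalin precursor, kept 97.4% of its wildtype level of 246 (95% interval 86.2 to 110) in the authors' deposited table. The list of enteric neuropeptides and nitric oxide genes thus had 6 of 14 measured members lower.

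The neuronal cytoskeleton list had 24 of 32 members called lower in the authors' deposited table and a median of -0.92. Its members fell by very different amounts. Stmn3 (-5.86 ± 0.36), Ina (-5.31 ± 0.27) and Prph (-4.74 ± 0.21), a microtubule regulator and 2 intermediate filament proteins of neurons, kept under 4% of wildtype in the authors' deposited table. Gap43 (-1.77 ± 0.08) and Stmn2 (-1.73 ± 0.15), proteins of growing axons, kept near 30%, and the full-model deviance of Stmn2 in the authors' deposited table was 18.3, above the limit. Nefl (-1.38 ± 0.11) and Nefm (-1.05 ± 0.11) overlap on opposite strands in the annotation, and the deviance of Nefm in the authors' deposited table was 18.6. Tuba1a and Map1b, expressed in many cell types, kept 71.8% and 69.5% of levels of 7872 and 4063 in the authors' deposited table.

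RNA-binding proteins that set neuronal splicing and mRNA stability fell with them. Of 20 such genes 9 were lower in the authors' deposited table, among them Elavl3 (-5.28 ± 0.18), Srrm4 (-4.34 ± 0.20), Celf3 (-4.12 ± 0.14) and Elavl4 (-3.14 ± 0.16). Their broadly expressed relatives Ptbp1 (-0.02) and Rbfox2 (0.02) were not called in the authors' deposited table.

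Of 34 genes of synaptic vesicles and exocytosis, 15 were called lower in the authors' deposited table, with a list median of -0.27. Syt1, the calcium sensor of transmitter release, had -2.05 ± 0.13 with a deviance of 25.2, and the vesicle protein Syp had -1.74 ± 0.23 in the authors' deposited table. Snap25 (-1.40 ± 0.26) was lower while Vamp2, its partner in vesicle fusion, kept 99.7% of its level of 796 (95% interval 88.5 to 112) in the authors' deposited table. Secretory granule genes had 8 of 16 lower in the authors' deposited table, with their median at -0.998.

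Ion channel genes and transmitter receptors were split. Of 29 neuronal ion channel genes 8 were called lower in the authors' deposited table, led by the sodium channel subunit Scn3b (-4.53 ± 0.23). Of 27 GABA, glycine and glutamate receptor genes 3 were lower in the authors' deposited table (11.1%, against 1.95% of all genes). Among them Grik3, a kainate receptor subunit, fell by 3.76 on the log2 scale from a level of 408. The medians of these lists in the authors' deposited table were -0.09 and 0.03. In the neural adhesion list, 8 of 31 genes were lower in the authors' deposited table, from L1cam (-3.74 ± 0.13), an adhesion protein of migrating crest cells and axons, and Nfasc (-2.20 ± 0.11, deviance 21.2) to Cdh2 (-0.34 ± 0.08). Ncam1 kept 106% of a level of 2778 in the authors' deposited table and was not called. The Eph, Slit and netrin guidance list had its median at 0.08, with 20 of 30 members above 0 and 2 called lower in the authors' deposited table. Its lower members were Dpysl5, described below, and Rgmb (-0.38 ± 0.08), a co-receptor for BMP.

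Transcription factors of the enteric crest lineage were lower in 19 of 32 measured cases in the authors' deposited table, with 0 higher and a median of -0.77. Tlx2, a homeobox gene of enteric neurons, changed by -5.23 ± 0.26 and Phox2a, a homeobox gene of autonomic neurons, by -4.45 ± 0.24 in the authors' deposited table. Insm1 (-2.86 ± 0.16, deviance 18.5) and Myt1 (-3.45 ± 0.22), zinc finger genes of neuronal differentiation, were lower in the authors' deposited table.

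Other members of the list kept more of their level. Tbx3 kept 52.5%, Tbx2 65.2%, Hoxb5 67.0% and Hand2 79.6% of wildtype in the authors' deposited table, each called lower. Zeb2, a gene needed for enteric crest formation that mesenchyme expresses too, had -0.17 ± 0.08 and was not called in the authors' deposited table. Sox4, Sox11, Isl1, Gata2 and Gata3 were not called either.

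Several of the strongest decreases stood in none of the lists. Dlx1 (-4.48 ± 0.18) and Dlx2 (-4.53 ± 0.29), neighbouring homeobox genes, fell to levels of 8.09 and 6.59 from 181 and 153 in the authors' deposited table. Mab21l1 (-4.69 ± 0.21), Eml5 (-2.47 ± 0.10), the cadherin Celsr3 (-3.35 ± 0.18) and the membrane protein Islr2 (-2.74 ± 0.14) were also among the genes of smallest p in the authors' deposited table. Hoxd3 (-2.27 ± 0.15) and Eya1 (-2.06 ± 0.14), developmental transcription factor genes with wildtype levels of 341 and 168, kept 20.7% and 24% in the authors' deposited table. Adcyap1r1, the receptor for the peptide that Adcyap1 encodes, changed by -1.59 ± 0.11 in the authors' deposited table.

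For 11 genes called lower the fit put the double null level at 0, so only a bound can be given. Against a floor of 3 counts over the 6 double null guts, the homeobox genes Hmx3 and Hmx2 were at least 54.0-fold and 40.7-fold lower, and Pou4f2, a POU homeobox gene, was at least 44.3-fold lower in the authors' deposited table. The other 8 had bounds between 5.35-fold and 20.5-fold.

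Progenitor and glial genes were lower too. Of 30 measured genes of the glia and Schwann lineage, 12 were called lower and 0 higher in the authors' deposited table, with a median of -0.46. Sox10, the factor of crest progenitors and glia, had a level of 442 in wildtype and 36.2 in double null guts, a log2 change of -3.61 ± 0.22 with a deviance of 17.6 in the authors' deposited table. Foxd3, another crest progenitor factor, changed by -3.72 ± 0.24 in the authors' deposited table.

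Cdh19 (-2.97 ± 0.22), a cadherin of crest and Schwann cell precursors, Lgi4 (-2.36 ± 0.20), a secreted glial protein, and Sox8 (-1.95 ± 0.13), a relative of Sox10, were called lower in the authors' deposited table. Erbb3, the neuregulin receptor that epithelium and glial precursors both express, kept 57.2% of a level of 858 in the authors' deposited table. Sox9 (0.12), Postn (0.01) and Mbp (-0.07), which cells outside the crest lineage express as well, were not called in the authors' deposited table. S100b and Gfap, markers of mature glia, had wildtype levels of 0.640 and 3.00 in the authors' deposited table, too low to be judged.

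In Ret's own pathway, 2 of 8 measured ligands and co-receptors (25%) and 2 of 19 adaptors and ERK feedback targets (10.5%) were called in the authors' deposited table, against 2.2% of all genes. Among the first, Gfra1, the GDNF co-receptor, was lower at 82.2% of a level of 1940 (-0.28 ± 0.07, adjusted p 2.93e-03), and its ligand Gdnf was higher at 117% of a level of 601 (0.23 ± 0.07, adjusted p 0.0474) in the authors' deposited table. Gfra2, the neurturin co-receptor, had -0.51 ± 0.16 in the authors' deposited table and was not called (adjusted p 0.0679). Among the second, the phosphatase Dusp6 (-0.41 ± 0.07) and the ERK inhibitor Spry2 (-0.31 ± 0.08) were lower in the authors' deposited table, and 0 were higher. Etv5, also a target of ERK signalling, kept 90.9% and was not called in the authors' deposited table.

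Endothelin 3 and its receptor form the other main signal of enteric crest migration. Ednrb, the receptor, fell from 1746 to 811, a log2 change of -1.11 ± 0.07 (adjusted p 1.27e-50), in the authors' deposited table. Its ligand Edn3 had 0.21 ± 0.09 and was not called. Ccnd1, a cyclin of the G1 phase, kept 68.2% of its level of 2413 (-0.55 ± 0.06) in the authors' deposited table. It was the 1 called gene of 26 in the cell cycle list (3.85%, near the 2.2% of all genes). The proliferation markers Mki67 (-0.01) and Top2a (-0.01) were not called.

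In the Notch pathway, which keeps crest cells from differentiating, the ligands Dll3 (-3.63 ± 0.29) and Dll1 (-0.49 ± 0.09) were lower in the authors' deposited table. The regulators Mfng (-0.42 ± 0.11) and Hes6 (-0.38 ± 0.09) were lower too. These were 4 of 27 genes of the Bmp and Notch list (14.8%, against 1.95% of all genes). The receptors Notch1 (-0.06) and Notch2 (-0.08) were not called in the authors' deposited table. Ngfr, the low-affinity neurotrophin receptor that marks enteric crest cells, kept 50.6% of a level of 438 (-0.98 ± 0.08) in the authors' deposited table. It and the sorting receptor Sorcs1 (-0.47 ± 0.10) were the 2 genes called lower among 11 neurotrophin genes (18.2%, against 1.95% of all genes).

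In semaphorin signalling, 2 of 20 semaphorins (10%, Sema3d included), 2 of 11 receptors (18.2%) and 5 of 16 intracellular effectors (31.2%) were called in the authors' deposited table, against 2.2% of all genes. Of the other semaphorins, Sema6d was called higher (0.22 ± 0.06), and Sema3a (-0.11), Sema3c (0.08) and Sema3f (0.22), the secreted relatives of Sema3d with levels between 837 and 941, were not called in the authors' deposited table. Among 11 receptors, Plxna4, a plexin of neurons, was lower at 54.3% of a level of 659 (-0.88 ± 0.12) and Plxnd1, the plexin of endothelium, was higher at 116% of a level of 3278 (0.22 ± 0.05) in the authors' deposited table. Plxnd1 lies 2.16 Mb from Ret. The neuropilins Nrp1 (-0.09) and Nrp2 (0.10) were not called. The 5 called effectors were lower. Dpysl3, Dpysl5 and Crmp1 encode collapsin response mediators of axons and changed by -0.97 ± 0.06, -0.77 ± 0.09 and -0.50 ± 0.07 in the authors' deposited table, from levels of 3329, 352 and 1189. Dpysl5 lies 18.1 Mb from Sema3d.

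A set of endothelial genes rose by small amounts. Of 42 measured genes of the endothelium list, 13 were called higher in the authors' deposited table (31%, against 0.244% of all genes) and 0 lower. All 42 had a positive log2 change, from 0.01 to 0.53, with a median of 0.23. This list was chosen with earlier results of these data known, so these counts are a description and not a test. Other lists leaned the same way by smaller or like amounts, with positive values in 9 of 9 VEGF and angiopoietin ligands, 24 of 26 epithelial, 15 of 17 smooth muscle and 11 of 12 mesothelial genes in the authors' deposited table. Of all genes with a level of at least 50, 53% were positive. Pecam1, an adhesion protein of all endothelium, rose from 901 to 1099, a log2 change of 0.29 ± 0.06 (adjusted p 6.23e-05) in the authors' deposited table. Cdh5, the cadherin of endothelial junctions, rose from 1596 to 1941 (0.28 ± 0.06, adjusted p 6.59e-05) in the authors' deposited table.

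Adgrf5, an adhesion receptor of endothelium, rose to 133% of wildtype (0.41 ± 0.07, adjusted p 3.00e-06) in the authors' deposited table. Flt1 (0.47 ± 0.12) and Kdr (0.19 ± 0.05), receptors for VEGF, and Tie1 (0.30 ± 0.07), a receptor tyrosine kinase of vessels, were called higher in the authors' deposited table. Vwf had the largest value in the list, 0.53 ± 0.26, and was not called (adjusted p 0.700). The summed level of the 42 genes in the authors' deposited table was 18061 in wildtype and 21005 in double null guts, or 116% of wildtype.

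Genes of arteries, veins and lymphatics had 2 of 20 members called higher in the authors' deposited table (10%, against 0.244% of all genes). These were Cd36, a fatty acid receptor (0.54 ± 0.12), and Stab2, a scavenger receptor of sinusoids and lymphatics (0.41 ± 0.11). The list median was 0.18. Epas1, a hypoxia-inducible factor abundant in endothelium, was in no list and rose by 0.28 ± 0.07 in the authors' deposited table. Of the 9 VEGF and angiopoietin ligands 0 were called, and Vegfa had 0.28 ± 0.14 in the authors' deposited table. The hypoxia and glycolysis list, with 0 of 20 called in the authors' deposited table and 2 at an unadjusted p under 0.05, had a median of 0.12. Whether the fall of the neural genes had a part in these values was not tested.

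**Figure D3:**
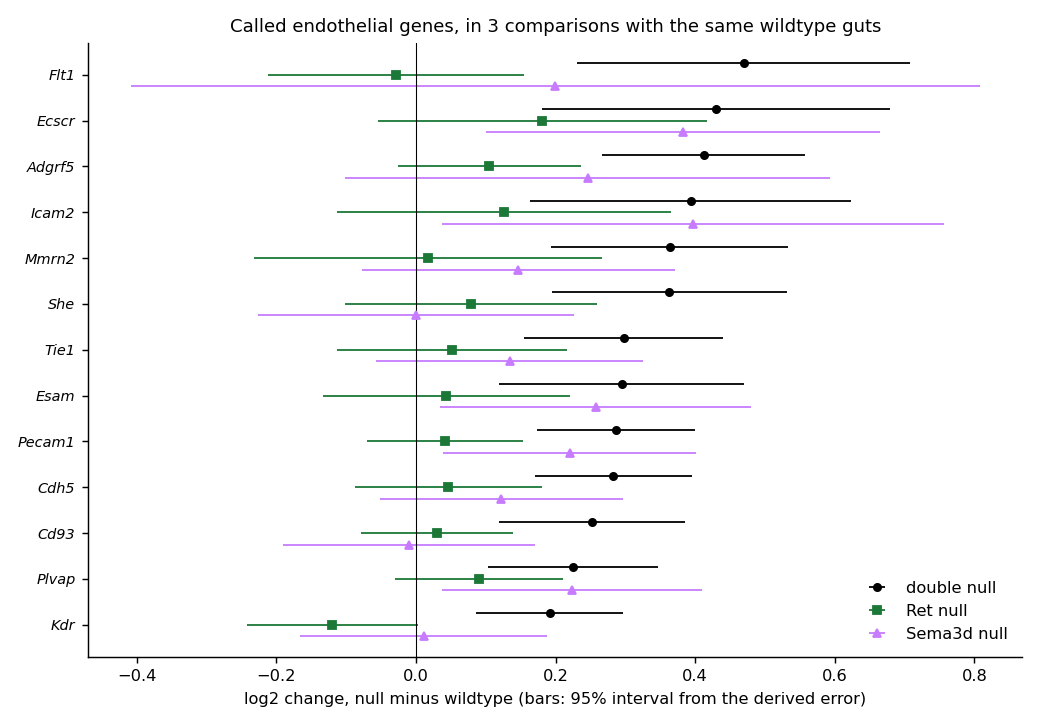
Log2 change from wildtype (horizontal axis) of the 13 endothelial genes called in double null guts, for double null (circles), Ret null (squares) and Sema3d null guts (triangles), with bars for the 95% interval from the derived error. In double null guts the values run from 0.19 (Kdr) to 0.47 (Flt1), and none of the 13 was called in either single null; the 3 comparisons share the 6 wildtype guts.

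The single nulls are given beside these values because they were set against the same 6 wildtype guts, so the comparisons are not independent. For Pecam1 the log2 change was 0.04 in Ret null and 0.22 in Sema3d null guts, per the authors' deposited tables, and for Cdh5 it was 0.05 and 0.12. For Flt1 the values in the authors' deposited tables were -0.03 and 0.20, and for Adgrf5 they were 0.11 and 0.25. The list median in the authors' deposited tables was 0.23 in double null, 0.02 in Ret null and 0.14 in Sema3d null guts. The number of its genes called higher was 13, 0 and 0, where 0.244%, 0.401% and 0.0173% of all genes were called higher. The median error of genes with a level of at least 50 was 0.079, 0.078 and 0.111, so like changes were harder to call in Sema3d null guts. Double null guts were not tested against either single null. The test of non-additivity in the authors' deposited table asks whether the double null change differs from the sum of the single null changes. It called 0 of the 42 genes and only 0.164% of all genes, so the 0 does not show that these changes were additive.

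Lists of other cell types held calls at about the rate of all genes. Over the 11 marker lists of cell types other than glia and endothelium, 4 of 161 measured genes were called in the authors' deposited table (2.48%, against 2.2% of all genes), and 10 had an unadjusted p under 0.05. The 4 were 1 gene each in the lists of pericytes, interstitial cells, kidney with gonad and adrenal, and skeletal muscle with somatic nerve. The hedgehog and apoptosis lists had 0 of 14 and 0 of 17 called, with 0 and 1 at an unadjusted p under 0.05. The smooth muscle genes Acta2 (0.04) and Myh11 (0.05), the epithelial genes Epcam (0.06) and Cdh1 (0.06) and the mesothelial gene Wt1 (0.08) had wildtype levels of 5118, 2078, 1122, 1290 and 682 in the authors' deposited table. The list medians were 0.06 for smooth muscle, 0.14 for mesothelium, 0.08 for epithelium, -0.06 for macrophages and 0.07 for erythroid cells in the authors' deposited table.

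In the list of interstitial cells of Cajal and fibroblasts, Kit (0.10) and Pdgfra (0.12) were not called, and Etv1, which neurons and interstitial cells express, was lower by -0.35 ± 0.07 in the authors' deposited table. Pericyte genes had 1 of 8 called, Ndufa4l2 (-2.19 ± 0.44), from a level of only 16.1 in the authors' deposited table. The liver gene Afp had 0.86 ± 1.16, an interval too wide to read, in the authors' deposited table. Calb1 (-1.78 ± 0.53), used here as a kidney marker but also expressed in enteric neurons, and Prrxl1 (-2.96 ± 0.86), a sensory neuron gene, were lower at wildtype levels of 9.49 and 5.21 in the authors' deposited table.

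Of 6018 measured genes that are not protein coding, 34 (0.565%) were called in the authors' deposited table, 25 lower and 9 higher. The share was 2.2% of all genes and 2.78% of protein-coding genes, so noncoding genes were called less often. These shares were not matched for fitted level, and 369 of the 505 calls came from the 12256 genes with a level of at least 50. Whether noncoding genes were less affected was therefore not tested. Miat, a long noncoding RNA abundant in neurons, fell from 1154 to 125, a log2 change of -3.21 ± 0.09 (adjusted p 3.08e-265), in the authors' deposited table. Gm27998 lies within Miat on the same strand and is counted among the 34 as well, so these may not all be separate transcripts. Several called transcripts lay beside or over neural or crest genes that also fell. Others lay nearest to protein-coding genes of little change, such as Kif13b (-0.03) near Mir124a-1hg and Srpk2 (-0.09) near AI506816. Gm12688, 1.3 kb from Foxd3, changed by -3.64 ± 0.37, and Gm10863, 0.8 kb from Sox10, by -3.88 ± 1.03 in the authors' deposited table. Gm5607 (-4.96 ± 0.43), which overlaps Sox1 (-2.46), was lower in the authors' deposited table. Tbx3os1 (-0.74 ± 0.21), which overlaps Tbx3, and AV026068 (-0.41 ± 0.10), which overlaps Hand2, were lower too.

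Sox2ot, whose gene spans Sox2, changed by -2.38 ± 0.28, while Sox2 itself had -0.20 ± 0.13 and was not called in the authors' deposited table. No source used here gives the strand setting of the counting, so reads of overlapping genes may have been shared. Outside the neural loci, Peg13, an imprinted transcript, kept 82.5% of a level of 416 in the authors' deposited table and was called lower.

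Host transcripts of microRNAs were among the called genes. Of 633 measured genes that contained a Mir gene on the same strand in GRCm38, 26 were called in the authors' deposited table and held 29 Mir genes. That is 4.11% of these hosts, against 2.2% of all genes and 2.78% of protein-coding genes. The hosts were not matched with other genes for fitted level. Of these hosts 25 were lower, where 88.9% of all called genes were lower. Mir124a-1hg, the host of Mir124a-1, fell from 49.1 to 0.162 in the authors' deposited table, a log2 change of -8.24 ± 0.55 that rests on about 1 count over the 6 double null guts. C130071C03Rik, which contains Mir9-2, changed by -4.26 ± 0.47, and Gm26871, which contains Mir137, by -4.88 ± 1.15 at a wildtype level of 4.79 in the authors' deposited table. Hoxd3, described above, contains Mir10b, and Arpp21 (-3.32 ± 0.61) contains Mir128-2. Poly-A libraries measure the host transcripts and not the mature microRNAs, which were not measured. The mature sequences inside these hosts that RefSeq lists (GRCm38.p6) are shown for 1 arm of each hairpin, because they identify which regulators lie in the affected transcripts, with the seed, bases 2 to 8, in capitals.
miR-9-5p: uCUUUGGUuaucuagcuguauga
miR-137-3p: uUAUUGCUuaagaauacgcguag
miR-10b-5p: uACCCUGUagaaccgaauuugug
miR-128-3p: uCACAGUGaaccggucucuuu
The 4 seeds differ from one another.

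The largest decreases of the double null guts are set beside the single nulls in the plot of the 3 comparisons. Tubb3 had -5.43 in double null, -5.36 in Ret null and -0.10 in Sema3d null guts, per the authors' deposited tables. Dbh had -5.44, -6.28 and -0.11, and Sox10 had -3.61, -3.50 and -0.08 in the authors' deposited tables. Over the 449 genes called lower in double null guts the median log2 change in the authors' deposited tables was -1.16 in double null, -1.19 in Ret null and -0.10 in Sema3d null guts. Over the 56 genes called higher it was 0.29, 0.13 and 0.13. Since these genes were chosen by their calls in double null guts, the larger double null value of the second set is partly fixed by that choice.

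**Figure D4:**
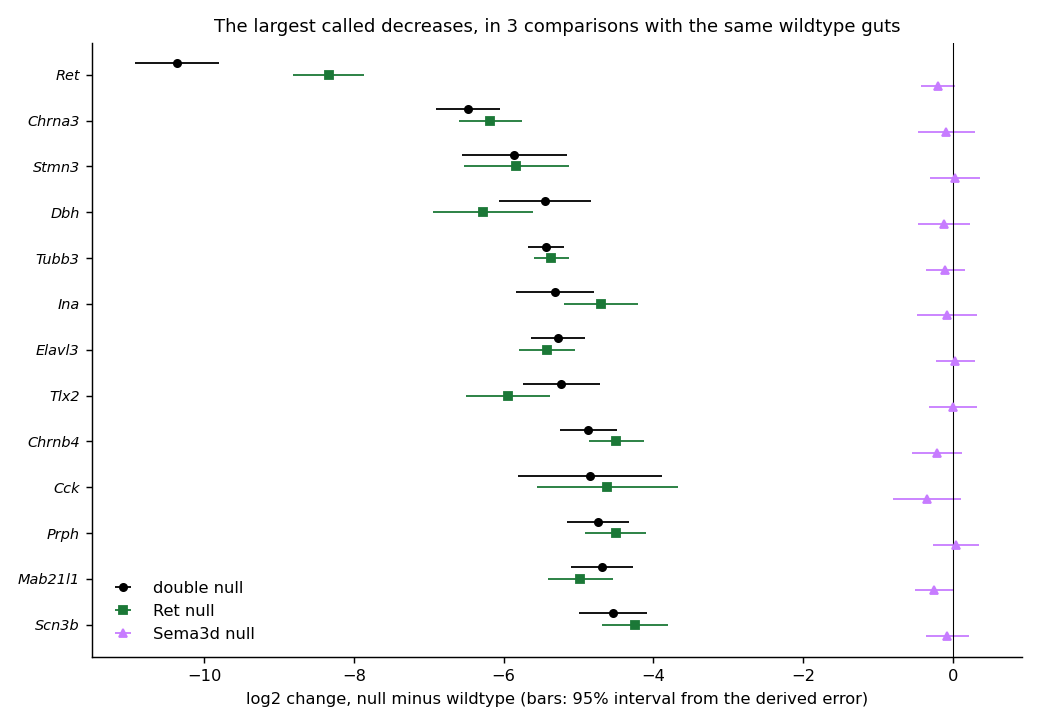
Log2 change from wildtype (horizontal axis) of 13 of the 15 protein-coding genes with the largest called decreases, for double null (circles), Ret null (squares) and Sema3d null guts (triangles), with bars for the 95% interval from the derived error. All 13 lie below -4 in double null and Ret null guts, and in Sema3d null guts each lies between -0.34 (Cck) and 0.05 (Prph); the comparisons share the 6 wildtype guts.

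The test of non-additivity was called for 3 of the 505 genes in the authors' deposited table, where 0.164% of all genes were called. Lyst, a regulator of lysosomal trafficking, changed by -0.57 ± 0.11 in double null, -0.92 in Ret null and -0.53 in Sema3d null guts, per the authors' deposited tables. Plxna4 changed by -0.88, -1.45 and -0.10 in the authors' deposited tables. For both of these genes the Ret null value was the lowest of the 3. The test was not passed by 2 further genes chosen after their values were seen. Tubb2b, a tubulin, had -0.31 ± 0.05, -0.09 and 0.03 in the authors' deposited tables (interaction adjusted p 0.62), and Rab6b had -0.95 ± 0.12, -0.69 and 0.47 (interaction adjusted p 0.71).

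Genes near Ret and Sema3d were counted separately. Within 20 Mb of Ret, 17 of 418 other genes (4.07%) were called in the authors' deposited table, 12 lower and 5 higher. Within 20 Mb of Sema3d, 13 of 283 (4.59%) were called in the authors' deposited table, 8 lower and 5 higher. Elsewhere the share was 473 of 22268 (2.12%). For genes called higher the shares in the authors' deposited table were 1.2% near Ret, 1.77% near Sema3d and 0.207% elsewhere.

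Some of the 13 genes called near Sema3d are given with their values in the single nulls, which share the wildtype guts. None of the 13 was called in Sema3d null guts, where only 8 of 23063 genes were called in all. AI506816, 11.1 Mb from Sema3d, had -1.10 ± 0.15 in double null, -0.95 in Sema3d null and -0.09 in Ret null guts, per the authors' deposited tables. Its deviance in double null and wildtype guts was 42.9, a wide scatter about the fit. Cfap69 had -0.78 ± 0.22, -0.85 and 0.19, and Rint1 had -0.31 ± 0.08, -0.29 and -0.09 in the authors' deposited tables, in the same order. Cd36, counted above among the vessel genes, lies 5.19 Mb from Sema3d and had 0.54, 0.44 and 0.17 in the authors' deposited tables. The pseudogene Gm6089 had 2.52 ± 0.58, 2.77 and 0.68 in the authors' deposited tables at a wildtype level of 1.81. Other genes near Sema3d were called lower in Ret null guts. Among them, Pclo had -0.85 ± 0.11, -0.57 and -0.64, and Dpysl5 had -0.77 ± 0.09, 0.11 and -0.74 in the authors' deposited tables.

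Near Ret, Zfp9 at 0.264 Mb had -0.32 ± 0.08 in double null, -0.46 in Ret null and -0.06 in Sema3d null guts, and Ankrd26 at 0.304 Mb had 0.23 ± 0.06, 0.27 and -0.05 in the authors' deposited tables. Others near Ret are neuronal genes, such as Iqsec3 (-5.92 ± 0.65), Syn2 (-1.89 ± 0.26) and Chl1 (-1.46 ± 0.16) in the authors' deposited table. The guts have a mixed strain background, and the genotype and the strain of the DNA around each allele cannot be told apart in these tables.

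**Figure D5:**
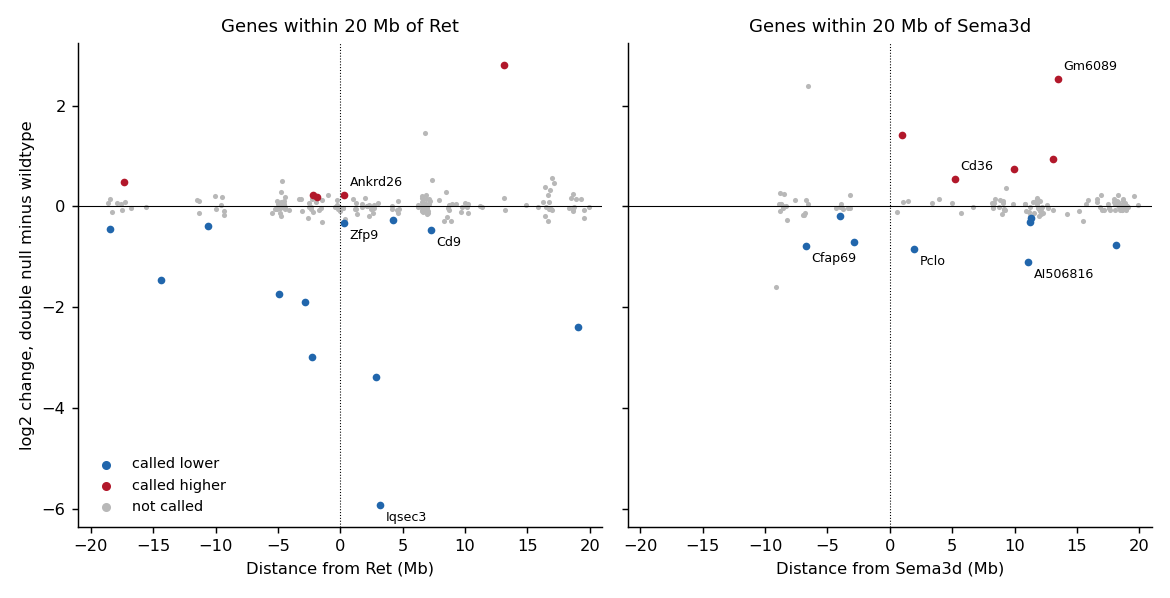
Log2 change between double null and wildtype guts (vertical axis) of genes within 20 Mb of Ret (left) or Sema3d (right) against their distance in Mb (horizontal axis); genes with a level of at least 50 or a call are drawn, called genes in blue or red. The 17 called genes near Ret include Iqsec3 at -5.92, and the 13 near Sema3d include AI506816 at -1.10 and Gm6089 at 2.52.

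Promoter windows of 300 bases, from 250 before to 50 after a start in RefSeq (GRCm38.p6), were searched on both strands for 11 short motifs. Windows were listed for 302 protein-coding genes called lower (437 windows), 29 called higher (40) and 12618 of all measured genes (15991). Their median GC content was 59.3% for genes called lower, 61.3% for genes called higher and 59.7% for all. ATTA, the homeodomain core, stood in 52.9% of windows of genes called lower, 32.5% of those called higher and 44.3% of all. In the 62 windows of 45 genes at or under 10% of wildtype its share was 46.8%, close to that of all. The E-box CAGCTG stood in 20.6%, 15% and 16.5%, the Sox motif ACAAAG in 20.8%, 10% and 14.7%, and the ETS motif AGGAAG in 29.7%, 30% and 33.6%. In the 62 windows CAGCTG stood in 24.2%, ACAAAG in 19.4% and AGGAAG in 37.1%. CCGGAAGT, a longer ETS motif, stood in 0.686%, 2.5% and 6.3%, TATAAA in 11.2%, 10% and 8.35%, and the GATA motif AGATAA in 6.18%, 5% and 7.42%.

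The rarer motifs were AACAGGAA, in 2.06%, 2.5% and 2.33%, and TTCAGCACC, the left part of the neuronal silencer site, in 1.14%, 0% and 0.438%. TAAT followed by ATTA after 2 or 3 bases, which also contains the homeodomain core, stood in 0.686%, 0% and 0.4%, and ACAAT followed by ATTGT within 8 bases in 0%, 0% and 0.15%. These are descriptions of letters and no test was made. The windows of Dbh (chr2:27165257-27165556, plus strand) and Stmn3 (chr2:181314451-181314750, minus strand) are shown as genes of the largest decreases, with each ATTA or its reverse complement in capitals. A window of the endothelial gene Adgrf5 (chr17:43360181-43360480, plus strand) is shown with AGGAAG or its reverse complement in capitals. The other Adgrf5 window (chr17:43389216-43389515, plus strand) held 0 copies of AGGAAG and is not shown.
Dbh: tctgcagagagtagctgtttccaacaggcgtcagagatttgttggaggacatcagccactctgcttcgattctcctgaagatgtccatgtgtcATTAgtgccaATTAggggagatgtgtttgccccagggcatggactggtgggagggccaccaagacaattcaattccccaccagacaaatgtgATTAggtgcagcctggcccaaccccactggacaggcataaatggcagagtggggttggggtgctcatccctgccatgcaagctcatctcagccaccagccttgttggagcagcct
Stmn3: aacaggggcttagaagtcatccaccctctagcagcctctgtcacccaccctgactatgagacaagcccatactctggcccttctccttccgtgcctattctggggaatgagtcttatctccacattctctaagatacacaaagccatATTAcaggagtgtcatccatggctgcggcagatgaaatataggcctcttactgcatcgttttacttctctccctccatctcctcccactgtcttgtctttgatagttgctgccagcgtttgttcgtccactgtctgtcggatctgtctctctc
Adgrf5: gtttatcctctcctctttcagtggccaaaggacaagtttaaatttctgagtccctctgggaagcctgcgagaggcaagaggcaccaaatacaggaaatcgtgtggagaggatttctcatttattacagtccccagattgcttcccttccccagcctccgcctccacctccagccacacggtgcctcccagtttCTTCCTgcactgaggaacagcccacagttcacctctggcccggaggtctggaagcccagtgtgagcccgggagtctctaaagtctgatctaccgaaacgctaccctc
Dbh held 3 copies of ATTA, Stmn3 held 1, and this Adgrf5 window held 1 copy of AGGAAG.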

How the data were processed

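Poly-A RNA of each gut was made into stranded libraries and sequenced as 100 bp read pairs, per the labels' protocols. The submitters' processing notes name DESeq 1.24.0, RSEM 1.2.31, STAR, Trimmomatic 0.36 and FastQC 0.11.5 and the GRCm38 (mm10) build, without roles. No source used here gives the STAR version or the strand setting. The authors deposited 4 tables of model results and no counts. The log2 coefficients of intercept, sex and genotype are as deposited by the authors. The deviances of the reduced and full models are deposited values with no fixed range, used as a score of fit. The authors also deposited a p-value and its adjusted form, for the genotype or interaction term.

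The table for double null guts fits 6 double null and 6 wildtype guts with sex as covariate, and another fits all 24 guts with an interaction of Ret and Sema3d. In the 3 tables against wildtype, each deposited p-value matched a chi-square test on the drop in deviance within 1.3e-10, and the adjusted values matched the Benjamini-Hochberg method. The strongest p-values are deposited as 0, so adjusted p was recomputed from the deviances. No header names the log base. In units of 1e6 normalised counts, wildtype levels summed to 11.1 with base 2 and 365 with the natural base, and base 2 was used. The depth of each library is unknown, as the tables hold no counts.

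The error after ± is the absolute coefficient over the square root of the drop in deviance, and 95% intervals rest on it. In data simulated to test the arithmetic this error was too small for the largest decreases. A fitted level is the sex-averaged value of 2 raised to the intercept. Genes with a coefficient beyond 15 or a fit that did not converge were left out, except for bounds against 3 counts over 6 guts. No count test was run, and double null guts were not tested against single nulls, because the tables hold no value per gut. Positions are from GENCODE M21, of the same build. Tools were python 3.11.15, pandas 2.3.3 and scipy 1.17.1.

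Named were Ret, Sema3d, the 15 largest called decreases and 15 largest increases of protein-coding genes with a level of at least 50, up to 20 called genes of smallest p in no list per direction, up to 6 of each other gene type, members of lists, and called genes within 20 Mb of Ret or Sema3d. Other noncoding and microRNA host genes, and genes fitted at 0, were named after their values were seen, and some genes that the rule picks are not reported here. The comparison, the 42 gene lists and the rules were chosen with earlier results of these data known. Alternatives changed the threshold, the level minimum, the gene types, the adjustment, the centring and the model.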

Additional observations from a re-analysis of the deposited data

Results flagged for a closer look

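The authors' deposited test of the interaction of Ret and Sema3d, fitted over all 24 guts, asks whether the double null change differs from the sum of the single null changes on the log2 scale. It was called for 3 of the genes that were called in double null guts, of which 2 are given here. The interaction coefficient in the authors' deposited table was 0.88 for Lyst (adjusted p 0.0033) and 0.66 for Plxna4 (adjusted p 0.027). Lyst and Plxna4 had less RNA lost in double null guts than the sum of the single null changes.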

How the results depend on the processing

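In the authors' deposited table the number of called genes was 505 in all, 449 lower and 56 higher. With the Bonferroni adjustment it was 276, 273 and 3, so that the share of calls that were higher was 1.09% in place of 11.1%. The number of genes called higher was 20 at an adjusted p below 0.01 and 14 with the Benjamini-Yekutieli adjustment. Apart from Bonferroni, the alternatives gave between 369 and 562 genes in all: these 2 and an adjusted p below 0.1, levels of at least 10 or 50, protein-coding genes alone, unbounded fits left in, centring on the median, and genes near Ret and Sema3d left out. The number of called genes with a called interaction was 3, and at an interaction adjusted p below 0.01, a threshold chosen after seeing the data, it was 1. Under the 24-gut model and under centring, 828 gene values each stayed within the error and none changed direction. Neither could move the values far, so this is no test of them. Centring subtracted only 0.006 and kept the same adjusted p, and the 24-gut model holds the same double null and wildtype guts. With a level minimum of 50, 35 of 42 lists kept a like count of called members and 7 did not, among them secretory granule genes with 4 called members. Leaving out a replicate was not possible, since the tables hold no value per gut. No paired analysis was possible because the tables hold no value per gut. Levels under about 1 count per gut limit the largest fold changes.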

Other observations

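Several genes called higher stood in none of the gene lists. Als2cl (0.50 ± 0.13), Gxylt2 (0.49 ± 0.13, 17.3 Mb from Ret), the extracellular matrix gene Sned1 (0.35 ± 0.08) and the growth factor receptor Fgfr3 (0.31 ± 0.09) were higher in the authors' deposited table. The splicing kinase Clk1 (0.20 ± 0.05) and the RNA phosphatase Dusp11 (0.21 ± 0.05) rose from levels of 1906 and 1737 in the authors' deposited table. The transcript 2610507I01Rik had 1.31 ± 0.33 with a deviance of 33.0 in the authors' deposited table, so the guts scattered widely about the fit.

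The Mir137 host Gm26871 ends at 118530022 on chromosome 3, and the transcript Gm37928 starts at 118530883 on the same strand. Gm37928 also changed, by -4.69 ± 0.54 from a level of 20.9 in the authors' deposited table. Whether they belong to the same transcript was not tested. The 2010111I01Rik transcript, which contains Mir23b, Mir27b and Mir24-1, changed by -0.47 ± 0.10 in the authors' deposited table. Neither is a measure of mature microRNA.

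Y-linked genes had 0 of 4 measured members called in the authors' deposited table, and X-linked dosage genes had 0 of 7, in groups of 3 females and 3 males each.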
